A study of Mus musculus with 64 samples.

Results

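Insertions of the Sleeping Beauty (SB) transposon in 11 mouse lymphomas were compared gene by gene with those in 11 mouse tails. The samples were those with the genotype label IMSB, and they were divided by whether the tissue label was TAIL. These 22 samples belong to a series of 64 and hold 94598 of its 299594 counted insertions, 43809 in the SB tumours and 50789 in the SB tails. The rest of the series, 30 tumours and 12 tails of mice with the PiggyBac (PB) transposase, is used only where the difference between SB tumours and tails is set beside its PB counterpart.

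The study produced insertion data with SB and PB to assess a method for finding selected genes, its tumours were diagnosed by histology as diffuse large B cell lymphomas, and tails gave control DNA. Animals of both groups came from crosses between Rosa26^SB/+ mice, which make the transposase from a constitutive knock-in, and mice of the transposon lines ITP1-C or ITP2-M, with the alleles Blm^m3/m3 on both sides. They were kept on a mixed background of 3 strains, C57BL/6 and FVB among them. The methods describe both triple- and double-transgenic SB mice, and the labels used here give neither the transposon line, the sex nor the age of a single mouse. Junctions between transposon and genome were amplified from genomic DNA by splinkerette PCR and sequenced, so no marker expression could be checked against the tissue labels.

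The tissue labels of tumours 1 to 11 were MES MASS, SI MASS, SPLEEN, MES LN, SPLEEN, SPLEEN, LN SAL GL, THYMUS, PROX SI, MES LN and MES MASS. No mouse named in a sample title gave both a tumour and a tail. The SB tumours had between 760 and 8786 insertions (median 3835), and the tails had between 2537 and 7148 (median 4361), a difference within the spread between samples (two-sided permutation test, p = 0.447, n = 11 and 11). Tumour 7 had the fewest and tumour 11 the most. The reads on these insertions numbered between 56871 and 162837 in tumours (median 106974) and between 55502 and 369482 in tails (median 104091). All ranks and shares by reads below are over these counted insertions, which leave out chromosome 14 and the sex chromosomes. The 4 tails with the most reads, tails 8 to 11, were also the 4 whose titles were written in a separated form, while the titles of all tumours and of the other 7 tails were joined. Since no molecular identifiers mark the PCR products, reads do not count separate molecules, and the counting intervals and floors below cover counting error only. The most similar pair of samples, tumours 2 and 3, shared 50 positions, or 1.30% of the insertions of the smaller. Next came tumour 5 with tail 5 (54 positions) and tumour 3 with tail 1 (48 positions), pairs whose titles differ, beside the tissue, only in the last letter of the mouse name. No sample was set aside as a duplicate.

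Sleeping Beauty is cut out of a donor array by its transposase and pasted in at TA dinucleotides. The ITP transposons carry gene traps in both directions, and an insertion inside a gene can end its transcript early whichever way it lies. Loss of the helicase Blm raises the rate of mitotic recombination, through which an insertion on one chromosome can become homozygous. When cells with an insertion expand, the reads of that insertion rise along with them, and passenger insertions in the same cells rise too.

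Of 1154 genes with at least 10 insertions over the 22 samples, 8 had more insertions in tumours (0.693% of those tested) and 2 had more in tails (0.173%), by edgeR's quasi-likelihood test with Benjamini-Hochberg adjustment over all 1154. The genes that were higher in tumours were Ptprc, Cbfb, Ebf1, Skint5, Birc3, Traf3, Fas and Slamf6, and those that were higher in tails were Notch1 and Rit2. Ptprc and Notch1 separated the groups sample by sample, whereas the calls of Cbfb, Skint5, Birc3, Fas and Slamf6 each rested on 1 tumour. Without adjustment, 66 genes were higher in tumours and 38 in tails at p below 0.05, and the median log2 fold change over all genes tested was 0.01. The tested genes were 4.81% of the 23986 annotated genes on the autosomes used, with a median length of 253 kb against 14.5 kb for all, so short genes had little chance to enter. The tests take samples as the unit, 1 per mouse. For genes that rest on 1 tumour, edgeR's p does not show a difference that recurs between tumours. The permutation test of insertions per 1000 gave unadjusted p of 0.105 for Cbfb, 0.203 for Skint5, 0.480 for Birc3 and 0.155 for Fas. Slamf6 was hit in 1 tumour only.

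**Figure D1:**
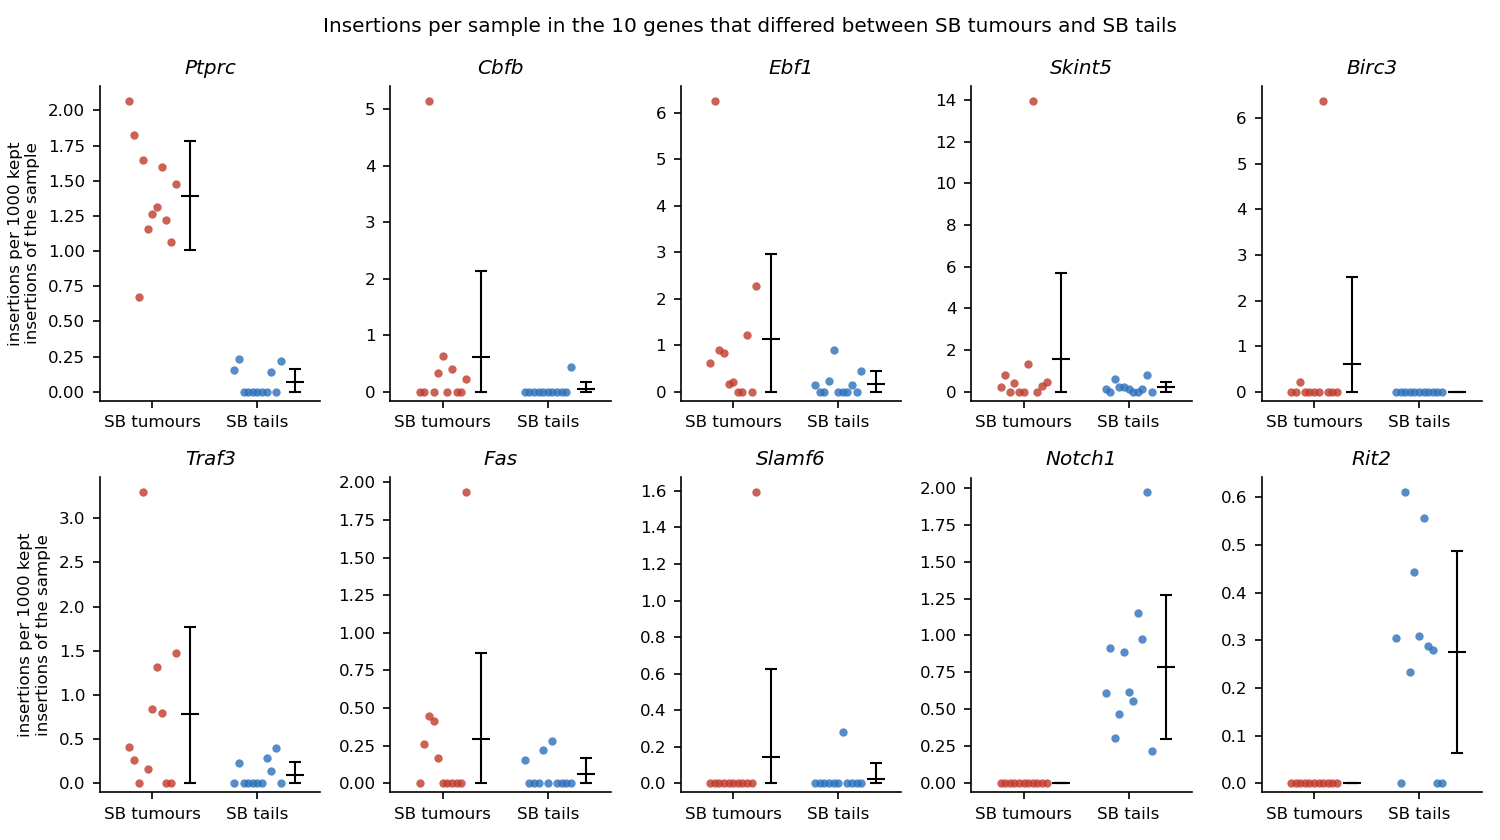
Insertions per 1000 kept insertions of a sample (vertical axes, each with its own scale) in the 10 genes called, with 1 point per sample in red for the 11 SB tumours and in blue for the 11 SB tails, and with the mean and SD as bars cut at 0. Every tumour lies above every tail for Ptprc and every tail above every tumour for Notch1, while Cbfb, Skint5, Birc3, Fas and Slamf6 each have 1 tumour far above the others.

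Ptprc, which encodes CD45, the receptor tyrosine phosphatase that sets the activity of Src family kinases in lymphocytes, was hit in all 11 tumours and in 4 of 11 tails. The tumours carried 61 insertions and the tails 4, where the gene's share of TA sites gave 2.41 and 2.61 expected. Per 1000 insertions of a sample, the lowest tumour had 0.672, the median tumour 1.32 and the highest 2.07, and the tails had 0, 0 and 0.229. The groups did not overlap. The mean was 1.39 ± 0.387 per 1000 in tumours and 0.0673 ± 0.0967 in tails (SD, n = 11 each), a log2 fold change of 3.73 ± 0.56 (SE, adjusted p = 3.0e-08). Ptprc passed 36 of the 37 alternatives, with adjusted p from 1.6e-11 to 0.686, the highest being a Fisher's exact test on the number of samples hit. It was the only gene higher in tumours that also passed a permutation test of the insertions per 1000 over all genes, a test chosen after seeing the data (0.0867% of genes called, adjusted p = 0.0115).

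The Ptprc insertions of tumours lay between positions 138074212 and 138173632 of the gene (chr1:138062859-138175756 on GRCm38, minus strand), in introns 2 to 23 and with none in the part transcribed after those. All 61 fell in introns, and 16 introns of the 30-exon gene were hit. In the direction of transcription lay 30, and 31 lay against it. Intron 2, the long intron behind the second exon, held 24 of them from 9 tumours, 39.3% of the insertions on 42% of the TA sites. The densest 10 kb, from position 138092072 to 138101485, held 16 insertions from 7 tumours, 26.2% of the insertions on 9.76% of the sites. The 61 insertions used 58 positions, and 3 of these positions were each found in a pair of tumours. In tumour 6 a pair of same-strand insertions with 34 reads each lay at positions 138094835 and 138094841, and whether it was 1 event was not tested. The target sites of 2 of them are shown because the same TA was found in different tumours, and it is in capitals on the plus strand of GRCm38.
Ptprc intron site in tumours 1 and 4, chr1:138101473-138101498: aagggcaggataTAggtgacatgaag
Ptprc intron site in tumours 1 and 6, chr1:138145911-138145936: aaaaagaacttaTAgattaaactcta

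Reads on Ptprc were spread thinly over many insertions. The median tumour insertion had 14 reads and the highest, in tumour 11, had 214. The gene held 0.0193% of the reads of the lowest tumour, 0.0683% of the median and 0.353% of the highest, against at most 0.022% in a tail. Only tumour 9 lay below the highest tail, and the mean share of 0.122% ± 0.105 in tumours and 0.00498% ± 0.00874 in tails (SD, n = 11 each) differed by a permutation test over all genes (adjusted p = 0.0115, 0.0867% of genes called). None of the Ptprc insertions was among the 10 with the most reads of its tumour. Among the 100 insertions with the most reads of each tumour, 5 lay in Ptprc, and 0 in the tails.

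Traf3 and Birc3 are partners in 1 complex, in which the ubiquitin ligase activity of the cIAP proteins, recruited through Traf3 and Traf2, degrades the kinase that starts non-canonical NF-kB signalling. Traf3 had 32 insertions in 8 tumours and 4 in 4 tails. Birc3, which encodes cIAP2, had 17 insertions in 2 tumours and 0 in tails. Traf3 was hit across tumours from several tissues, Birc3 almost entirely in the tumour from the thymus.

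Traf3 reached 0, 0.414 and 3.30 insertions per 1000 in the lowest, median and highest tumour, and 0, 0 and 0.394 in tails, so the groups overlapped. The ratio of pooled rates was 9.27 (95% counting interval 3.29 to 36.1), with a log2 fold change of 2.78 ± 0.60 (SE, adjusted p = 6.7e-04). The call held without any single sample, with adjusted p of 0.0188 without tumour 4 and 0.0238 without tumour 11, which held 8 and 13 of the insertions. Over 37 alternatives its adjusted p ran from 1.4e-05 to 1, and it was not called by DESeq2, by counting samples hit, by the permutation test (adjusted p = 0.431), or when insertions of a sample within 10 kb counted once. Along the gene (chr12:111166321-111267155, plus strand), intron 1, the long intron before the coding exons, held 20 of the 32 insertions from 6 tumours, 62.5% on 57.5% of the TA sites. In that intron 12 insertions lay in the direction of transcription, and over the gene 20 did, a division that did not pass a permutation test of orientation over tumours (p = 0.203). All 4 tail insertions were in intron 1 as well. The Traf3 insertions with the most reads were 1 of 376 reads in tumour 8 (chr12, position 111180313) and 1 of 360 in tumour 11, and the gene's share of reads reached 0.804% in tumour 11. Pairs of same-strand insertions at positions 111168836 and 111168840 in tumour 4, with 42 reads each, and at 111247202 and 111247206 in tumour 11, with 29 reads each, lay 4 bp apart, and whether each pair was 1 event was not tested.

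Birc3 (chr9:7847468-7873205, minus strand) had 16 insertions in tumour 8 and 1 in tumour 3. Tumour 8 thus reached 6.39 per 1000, the other tumours 0 or, in tumour 3, 1 insertion, and all tails were at 0. Against a floor of 3 insertions over the 11 tails, the tumours were at least 6.57-fold higher (edgeR log2 fold change 3.99 ± 0.81, adjusted p = 1.8e-04, higher in 2 of 11 tumours). Without tumour 8, 1 insertion was left and the gene could not be tested. Of 34 alternatives 32 kept the call, which was lost with DESeq2 and with samples hit. Birc3 was also not among the genes called when insertions of a sample within 10 kb counted once. The permutation test of insertions per 1000 gave p = 0.48 and did not pass over all genes (adjusted p = 0.894). The 16 insertions of tumour 8 spread over 20.9 kb, 6 in the direction of transcription and 10 against it, and none stood out in reads, with a median of 27 and a highest of 59. Exon 9, the last, held 2 of them, and introns 5, 6 and 7 most of the others.

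Of the 23 genes of the NF-kB list, 4 reached the minimum, Traf3, Birc3, Malt1 and Nfkb1, and both Traf3 and Birc3 were called, where 0.693% of all genes tested were higher in tumours. The median log2 fold change of the 4 was 2.33, and 0.01 over all genes tested. All 4 reached the minimum mainly through the tumours, so the minimum itself favoured a positive median, which supports nothing about the list. The whole list held 103 insertions in tumours and 17 in tails, or 2.54 ± 2.29 and 0.370 ± 0.328 per 1000 (SD, n = 11 each). Of these, 32 and 4 were in Traf3 and 17 and 0 in Birc3. Malt1, the paracaspase downstream of the B cell receptor, had 17 insertions in 7 tumours and 4 in 4 tails (log2 fold change 1.87 ± 0.66, adjusted p = 0.182) and was not called. Nfkb1, the p105 subunit, had 8 in 5 tumours and 2 in 2 tails (1.63, adjusted p = 0.453). Rel, the subunit most used in B cells, fell short of the minimum with 6 in 2 tumours and 0 in tails. Birc2 also fell short, with 3 insertions in tumours and 0 in tails. All 3 were in tumour 8, which held 16 of the Birc3 insertions. Whether the Birc2 and Birc3 insertions belong to 1 cluster was not tested.

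Fas, the death receptor through which lymphocytes are cleared, carried the most-read of the counted insertions in 3 of the 11 tumours. Each of those 3 insertions lay in intron 8, the last intron of this 9-exon gene (chr19:34290647-34327775, plus strand), in the direction of transcription, ahead of the exon that encodes the death domain. They were 1 of 5140 reads in tumour 3 from SPLEEN (3.93% of its reads), 1 of 6784 reads in tumour 4 from MES LN (6.68%) and 1 of 3793 reads in tumour 11 from MES MASS (4.16%).

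In all, Fas had 22 insertions in 5 tumours and 3 in 3 tails. The rates were 0, 0 and 1.93 per 1000 in the lowest, median and highest tumour and 0, 0 and 0.278 in tails. The groups overlapped, with 6 tumours at 0. The ratio of pooled rates was 8.50 (95% counting interval 2.55 to 44.4), with a log2 fold change of 2.42 ± 0.66 (SE, adjusted p = 0.0293). Tumour 11 held 17 of the 22 insertions, and without it 8 insertions were left over both groups and the gene could not be tested. The call was also lost without tail 2, 3, 4, 6, 9 or 11 (adjusted p up to 0.0702), and among samples with joined names (log2 fold change 1.95, adjusted p = 0.237) and with the title number as a block (adjusted p = 0.116). Over 36 alternatives the adjusted p ran from 5.9e-04 to 1, and 23 kept the call.

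Intron 8 held 13 of the 22 Fas insertions of tumours, 59.1% on 19.4% of the gene's TA sites, and 11 of the 13 lay in the direction of transcription. Tumour 11 alone held 17 of the 22, with 10 of the 17 in the direction of transcription. Of its insertions, 9 others lay within 10 kb of its most-read one. The other tumours hit had 1 or 2 insertions each, so these shares mostly describe 1 tumour. The densest 10 kb, from position 34320520 to 34324887, held 14 insertions from 5 tumours, 12 of them in that direction, while the others, most of them in intron 1, ran both ways. Over the whole gene 15 insertions were in the direction of transcription and 7 against it, and in each of the 5 tumours hit more ran with transcription than against it. An exact sign-flip permutation test gave p = 0.0625, the smallest it can give with 5 tumours. Tumour 3 and tail 1, and tumour 5 and tail 5, were also among the pairs of samples with the most shared positions. All 3 tail insertions fell on the positions of the 3 most-read tumour insertions, in the same direction, with 2 reads in tail 1, 15 in tail 5 and 47 in tail 7, and the middle position was also found in tumours 5 and 11 with 24 and 16 reads. Whether these are separate insertions at the same TA or reads carried between samples was not tested. The 3 sites are printed on the plus strand, the strand of the gene, with the TA in capitals.
Fas intron 8 site in tumour 3 and tail 1, chr19:34320630-34320655: tgggaataggcaTAagtcggaacagg
Fas intron 8 site in tumours 4, 5 and 11 and tail 5, chr19:34321841-34321866: ttttaaatgagaTAtaatggaaacta
Fas intron 8 site in tumour 11 and tail 7, chr19:34323123-34323148: catcactcaagaTAgctatctcaggg

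The share of reads on Fas averaged 1.37% ± 2.43 in tumours and 0.00563% ± 0.0136 in tails (SD, n = 11 each), with a median of 0 in both, and the difference did not pass the permutation test (p = 0.125). It was the only member of the apoptosis list of 18 genes to reach the minimum. The list held 31 insertions in tumours and 14 in tails, 0.465 ± 0.635 and 0.279 ± 0.225 per 1000, and 22 of the 31 were those of Fas. Bcl2, the survival factor of germinal centre lymphomas, had 1 in tumours and 4 in tails.

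**Figure D2:**
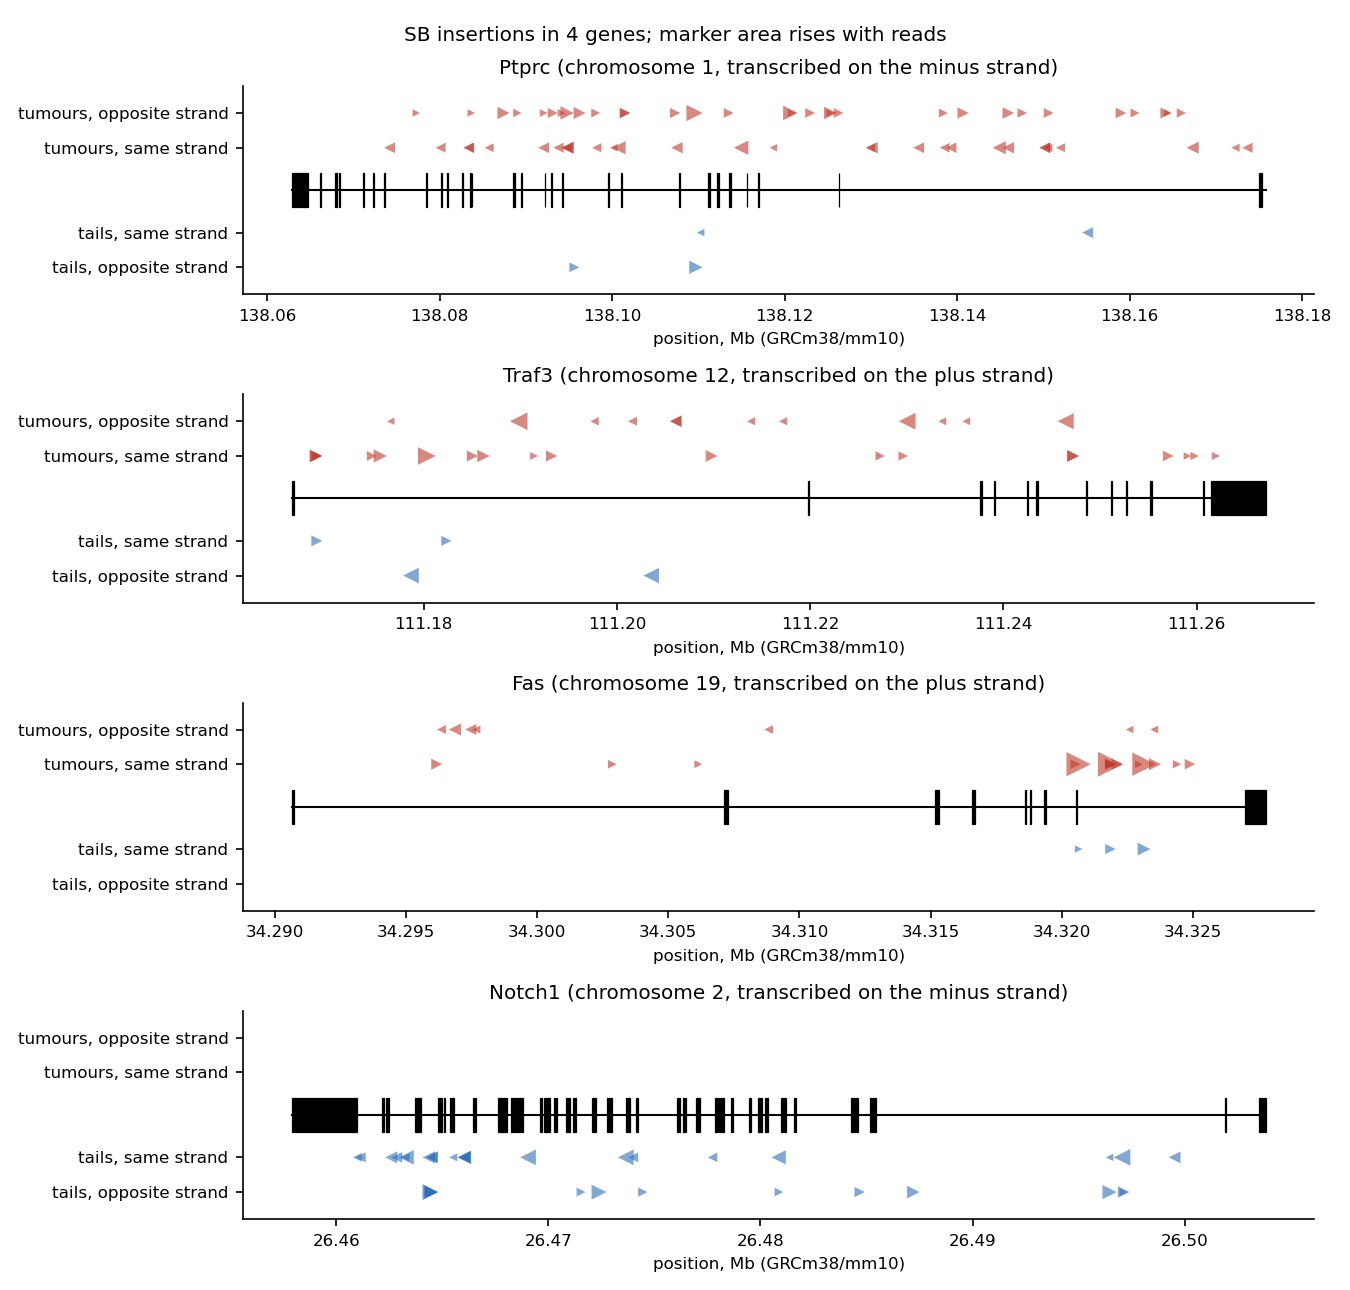
Insertions in Ptprc, Traf3, Fas and Notch1 along the gene (position in Mb on GRCm38/mm10), tumours in red above the gene model and tails in blue below it. Triangles point in the direction of the insertion, their area rises with reads, and black boxes are exons. The large same-strand triangles in the last intron of Fas are the most-read insertions of tumours 3, 4 and 11, and the Notch1 insertions are all in tails, with 22 of 38 in the part of the gene that is transcribed last.

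Ebf1 and Cbfb, both transcription factors of early lymphocyte development, were hit many times in a few tumours. Ebf1, which commits progenitors to the B lineage, had 57 insertions in 8 tumours and 9 in 5 tails. Cbfb, the partner that stabilises Runx proteins on DNA, had 31 in 5 tumours and 2 in 1 tail. In both genes most insertions came from 1 or 2 tumours.

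Ebf1 rates were 0, 0.621 and 6.26 per 1000 in the lowest, median and highest tumour and 0, 0 and 0.888 in tails. The ranges overlapped, and tumours 2 and 11, with 24 and 20 insertions, stood above the rest. The log2 fold change was 2.62 ± 0.50 (SE, adjusted p = 4.4e-05), and it was 1.89 (adjusted p = 0.0392) without tumour 2 and 2.42 (adjusted p = 9.6e-04) without tumour 11. Over 37 alternatives the adjusted p ran from 1.5e-07 to 1, and the call was lost with DESeq2, with samples hit and with clusters counted once. Along Ebf1 (chr11:44618100-45008096, plus strand), intron 7 held 37 insertions, 64.9% on 57.5% of the TA sites, and 24 insertions lay in the direction of transcription against 33 the other way.

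Insertions of high read number in Ebf1 were found in 3 tumours, and each had rank 3 by reads in its tumour. Tumour 2 had 1 of 6213 reads in intron 7 against the direction of transcription (chr11, position 44848275, 5.81% of its reads). Tumour 4 had 1 of 4607 reads in intron 5 in that direction (position 44631460, 4.54%), and tumour 11 had 1 of 2369 reads in intron 12 against it (position 44975989, 2.60%). No orientation or intron was common to the 3. The TA at position 44631460 was also found in tumours 1 and 11 and in tail 5, with 3, 23 and 6 reads on the same strand, and the TA at 44848275 also in tumour 3 with 457. Tumours 2 and 3 were also the most similar pair of samples, with 50 shared positions, and they shared another Ebf1 TA, at position 44703731. Whether any of these are separate insertions was not tested. Ebf1 held 1.34% ± 2.28 of the reads of tumours and 0.0159% ± 0.0249 of those of tails (SD, n = 11 each, permutation p = 0.0464, adjusted p = 0.412). The sites at positions 44631460 and 44848275 carried high-read insertions and were found in more than 1 tumour. They are printed on the plus strand with the TA in capitals.
Ebf1 intron 5 site in tumours 1, 4 and 11 and tail 5, chr11:44631448-44631473: gtaaaaacaattTAtttatttttaaa
Ebf1 intron 7 site in tumours 2 and 3, chr11:44848263-44848288: tcaccctatactTAgcatggcatctt

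Cbfb (chr8:105170674-105217989, plus strand) had 23 insertions in tumour 3 from SPLEEN, 3 in tumour 6, 2 each in tumours 5 and 11 and 1 in tumour 8. The lowest, median and highest tumours had 0, 0 and 5.15 per 1000, and 1 tail had 0.439. The ratio of pooled rates was 18 (95% counting interval 4.57 to 155), with a log2 fold change of 3.43 ± 0.65 (SE, adjusted p = 4.4e-05). Of the 5 tumours hit, only tumours 3 and 6 were above that tail. Without tumour 3 it was 1.73 and was not called (adjusted p = 0.367, in a range from 7.1e-07 to 1 over 37 alternatives). All 31 insertions were intronic, 18 of them in intron 3 from all 5 tumours, and 12 lay in the direction of transcription against 19. In tumour 3, the insertion with the second most reads of the sample lay in intron 2 in the direction of transcription (position 105178224, 2446 reads, 1.87%), and 16 of the 22 others lay within 10 kb of it. The 23 insertions together held 3.52% of the reads of tumour 3.

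The list of B-lineage transcription factors had 32 genes, of which 8 were tested and 2, Ebf1 and Cbfb, were called, where 0.693% of all genes tested were higher in tumours. The median log2 fold change of the 8 was 1.24, and several of them, such as Cbfb and Zeb2 (9 insertions in tumours and 2 in tails), reached the minimum through the tumours. The list held 201 insertions in tumours and 82 in tails, or 4.53 ± 2.34 and 1.66 ± 0.855 per 1000 (SD, n = 11 each). Of these, 57 and 9 were in Ebf1 and 31 and 2 in Cbfb. Foxp1 had 19 in tumours and 17 in tails (log2 fold change 0.38). Mef2c had 18 and 6 (1.67, adjusted p = 0.22), of which 11 were in tumour 8, and Runx1, a partner of Cbfb, had 15 and 9 (0.81, adjusted p = 0.729). Tcf4 had 5 and 9, the only tested member with fewer in tumours.

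Slamf6 and Skint5 were called on the strength of a single tumour each. Slamf6, a receptor of the SLAM family on lymphocytes, had 14 insertions, all in tumour 11, against 1 in tail 7 (chr1:171917458-171948958, plus strand). The ratio of pooled rates was 16.2 (95% counting interval 2.47 to 686; log2 fold change 2.66 ± 0.75, adjusted p = 0.048). Without tumour 11 it could not be tested, the call was lost without tumour 7 or any tail but tail 7 (adjusted p up to 0.0907), and DESeq2 turned the sign (-0.27). It passed 14 of 32 alternatives, with adjusted p from 0.0028 to 1, and was lost with the title number as a block. Intron 1 held 12 of the 14, and the strongest had 501 reads and had rank 9 in the sample. The single tail insertion, of 4 reads, was at the same TA on the other strand. Skint5, one of the Skint genes that act in the selection of epidermal gamma-delta T cells, had 46 insertions in tumours and 9 in tails, with 7 samples hit in each group (chr4:113477891-113999503, minus strand). Tumour 8 from THYMUS held 35, and the lowest, median and highest rates were 0, 0.267 and 14 per 1000 in tumours and 0, 0.152 and 0.788 in tails. The log2 fold change was 2.68 ± 0.51 (SE, adjusted p = 4.4e-05), and without tumour 8 it was 0.51 (adjusted p = 0.824, in a range from 3.4e-07 to 1 over 37 alternatives). The strongest insertion of tumour 8 in Skint5 had 4755 reads (2.92%, rank 6), and 12 others lay within 10 kb of it.

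The next genes by p did not pass. Camta1, a calmodulin-binding transcription activator, had 36 insertions in 6 tumours and 13 in 6 tails (log2 fold change 1.71 ± 0.50, adjusted p = 0.0646). Tumour 10 held 27 of them, among them 1 of 3087 reads, and without it the value was -0.13 (adjusted p = 0.966, in a range from 0.00278 to 1 over 37 alternatives). Ankrd44, a regulatory subunit of protein phosphatase 6, had 15 insertions in 7 tumours and 2 in 1 tail. Its rates were 0, 0.412 and 0.799 per 1000 in the lowest, median and highest tumour, with at most 4 insertions in a sample, and the ratio of pooled rates was 8.69 (95% counting interval 2.02 to 78.4; log2 fold change 2.44 ± 0.72, adjusted p = 0.0646). Among samples with joined names it passed (log2 fold change 3.65, adjusted p = 0.0151, in a range from 0.00253 to 0.988 over 36 alternatives).

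Taken over the 8 genes that were higher in tumours, a tumour had insertions in 2 to 7 of them (median 5) and a tail in 1 to 4 (median 2). The genes held 0.0457% of the reads of the lowest tumour, 0.332% of the median and 11.5% of the highest, against 0.00721%, 0.0479% and 0.109% in tails. These values describe the chosen genes and carry no test.

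**Figure D3:**
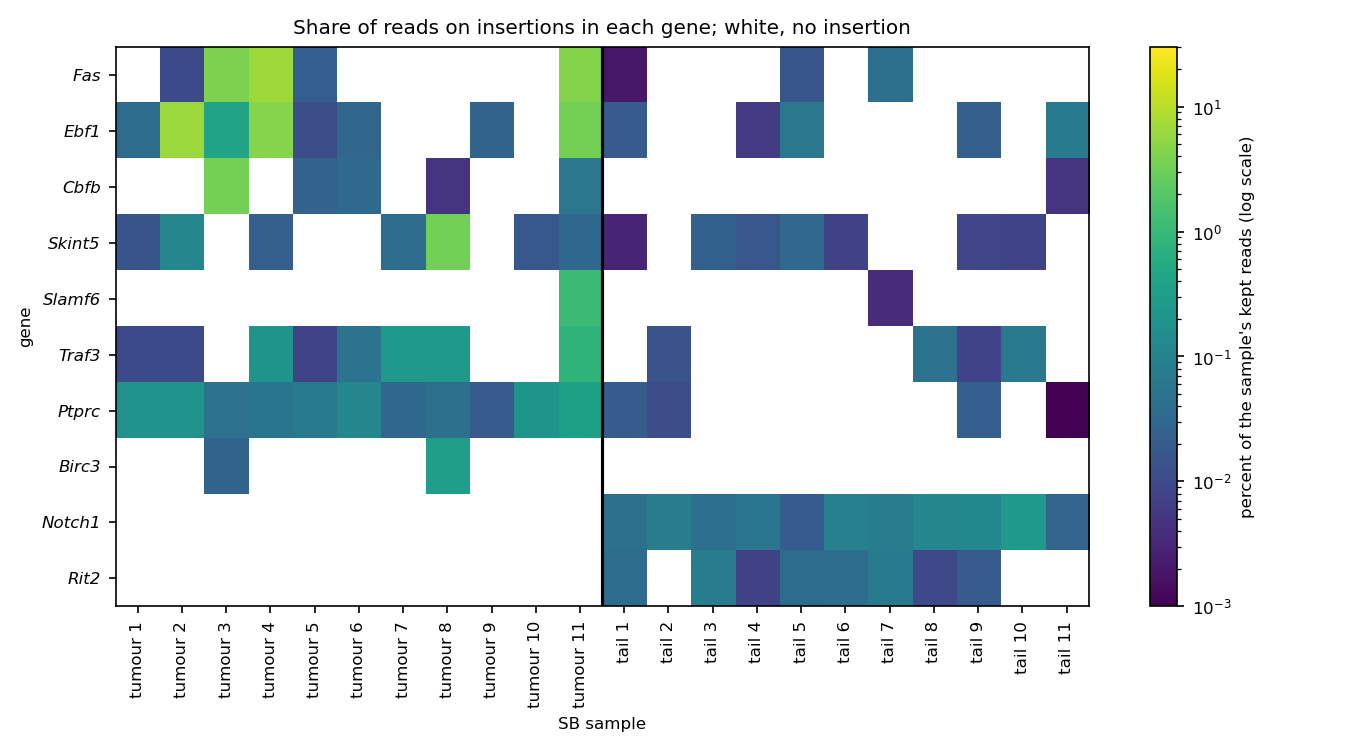
Share of each sample's kept reads on insertions in a gene (colour, percent, log scale; white, no insertion) for the 10 called genes, in SB tumours 1 to 11 and tails 1 to 11. Fas reaches 3.93% or more in tumours 3, 4 and 11, Ptprc stays at or below 0.353% in every tumour, and Notch1 has reads in every tail and in no tumour.

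Notch1, the receptor that directs T cell fate in the thymus and differentiation in the skin, was hit in all 11 tails and in none of the 11 tumours. The tails carried 38 insertions where 0.533 were expected from TA sites, and the tumours 0 where 0.499 were expected. From 1 to 7 insertions were found in each tail, with 0.219 per 1000 in the lowest, 0.618 in the median and 1.97 in the highest. The groups did not overlap. With a floor of 3 insertions over the 11 tumours, the tumours were at least 10.9-fold lower than the tails, whose mean was 0.789 ± 0.487 per 1000 (SD, n = 11), and the adjusted p was 6.8e-07. Notch1 passed all 37 alternatives (adjusted p from 1.3e-07 to 0.00327), among them Fisher's exact test of samples hit. It also passed the permutation tests of insertions per 1000 and of reads (adjusted p = 0.0115 each, 0.0867% of genes called in each). The 0 of the tumours bounds their rate only down to this floor.

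Within Notch1 (chr2:26457902-26503822, minus strand), the densest 10 kb lay in the last part to be transcribed. This stretch, picked for holding the most insertions, runs from position 26460998 to 26469046 and covers introns 24 to 33 of the 34-exon gene. It held 22 of the 38 insertions from 10 tails, 57.9% on 22.5% of the TA sites, and 15 of these were in the direction of transcription. Intron 30, of which 3.14% of the TA sites are part, held 10 insertions (26.3%) from 8 tails. In that intron only 3 ran with transcription. A single TA of intron 30, at position 26464464, was hit in tails 4, 5, 6, 8 and 9, each time on the plus strand, against the gene, with 21, 2, 13, 18 and 91 reads. The 38 insertions used 31 positions, 37 were intronic and 1 lay in exon 28, and over the gene 22 ran with transcription and 16 against. The TA that was hit in 5 tails is shown in capitals on the plus strand.
Notch1 intron 30 site in tails 4, 5, 6, 8 and 9, chr2:26464452-26464477: actacacagacaTAtatgtaggcaga

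The Notch1 insertions of tails had few reads, with a median of 21 and a highest of 253 in tail 8 (intron 2, position 26497046). Together they held 0.086% ± 0.0684 of a tail's reads (SD, n = 11) and at most 0.266%. None ranked among the 10 insertions with the most reads of a tail, and 1 ranked among the first 100. Between 1 and 7 insertions of low read number in each tail thus made up the difference, and no tail held a Notch1 insertion that dominated its reads.

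The other tested members of the Notch list were not called. Of 17 listed genes, 5 were tested, 1 (Notch1) was higher in tails and 0 in tumours, where 0.173% and 0.693% of all genes tested were. With Notch1 the list had 49 insertions in tumours and 85 in tails, 38 of the 85 in Notch1 itself, and a median log2 fold change of -0.39. Fbxw7, the ubiquitin ligase that degrades active Notch1, had 17 insertions in 8 tumours and 5 in 4 tails (log2 fold change 1.68, adjusted p = 0.249). Maml3, a coactivator of the pathway, had 5 in tumours and 14 in tails (-1.10, adjusted p = 0.603).

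Rit2, a neuronal small GTPase of the Ras family, had 14 insertions in 8 tails and 0 in tumours (chr18:30974314-31317128, minus strand). The tails had 0, 0.288 and 0.611 per 1000 in the lowest, median and highest sample, and 3 of them were at 0 like all tumours. With the same floor the tumours were at least 4.03-fold lower (adjusted p = 0.0106), and the call held without any single sample. Here the tails were near the 10.3 insertions expected from TA sites, and the tumours were below the 8.24 expected. The insertions lay 8 with and 6 against the direction of transcription, all in introns, with at most 45 reads. The permutation test of insertions per 1000 gave p = 9.4e-04 and did not pass over all genes (adjusted p = 0.173, in a range from 0.00419 to 0.852 over 36 alternatives).

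Among samples with joined names only, 11 tumours and 7 tails, 8 of the 10 genes were called again. There the log2 fold change was 4 for Ptprc (adjusted p = 7.6e-06) and -4.50 for Notch1 (adjusted p = 5.6e-05). Cbfb stood at 4.66 (adjusted p = 5.7e-05), Birc3 at 4.02 (adjusted p = 0.00394) and Traf3 at 3.65 (adjusted p = 0.00102). Ebf1 had 2.58 (adjusted p = 0.00236), Rit2 had -3.64 (adjusted p = 0.00419), and Skint5 was also called (adjusted p = 0.0015). Fas and Slamf6 (2.41, adjusted p = 0.224) were not called. All values are from edgeR on the same samples as above without tails 8 to 11.

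The next 6 genes by p in tails did not pass, and all but 1 had at most 2 insertions in tumours. Caln1, a neuronal calcium-binding protein gene, had 15 in 8 tails and 1 in tumours, a ratio of tails over tumours of 12.9 (95% counting interval 1.99 to 545; log2 fold change -2.65, adjusted p = 0.0683). Crim1, a transmembrane regulator of bone morphogenetic proteins, had 14 in 9 tails and 1 in tumours (ratio 12.1, interval 1.84 to 511; adjusted p = 0.0944). Tcf7l2, a transcription factor of Wnt signalling, had 13 and 1 (ratio 11.2, interval 1.68 to 477; adjusted p = 0.137), as did Ppp6r3, another regulatory subunit gene of protein phosphatase 6. Trdn had 16 and 2 (ratio 6.90, interval 1.62 to 61.9; adjusted p = 0.149). Ppargc1a had 22 in 9 tails and 4 in 2 tumours (log2 fold change -1.98, adjusted p = 0.139), almost all outside the exons and introns of the reference transcript.

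No other tested gene of the signalling list that holds Ptprc was called. The list of B cell receptor and CD45 signalling had 26 genes, of which 7 were tested, 1 was higher in tumours (Ptprc) and 0 in tails, where 0.693% and 0.173% of all genes tested were, and the median log2 fold change was 1.07. It held 203 insertions in tumours and 99 in tails, or 4.63 ± 1.16 and 1.93 ± 0.990 per 1000 (SD, n = 11 each), and 61 and 4 of these insertions were in Ptprc itself. Arhgap15, a GTPase-activating protein for Rac, had 30 in 9 tumours and 9 in 7 tails (log2 fold change 1.80 ± 0.54, adjusted p = 0.0729). Cblb, a ubiquitin ligase that restrains lymphocyte receptors, had 20 and 10 (1.07, adjusted p = 0.567). Of 24 JAK-STAT, Ras and MAPK genes, 7 were tested and 0 were called in either direction, with 98 insertions in tumours and 60 in tails and a median of 1.01. Nf1 (19 and 10) and Rasa1 (15 and 6), both GTPase-activating proteins for Ras, had the most insertions there.

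Among 30 chromatin regulators, 14 were tested and 0 were called, with 193 insertions in tumours, 186 in tails and a median log2 fold change of 0.18. Hdac9 had 30 in tumours and 27 in tails, Arid1b 18 and 30, Kmt2c 26 and 15, and the acetyltransferase gene Crebbp 13 and 5 (adjusted p = 0.491). Of 16 genes for RNA-binding and splicing factors, 7 were tested and 0 called (66 and 81 insertions, median 0.48), with Celf2 at 7 and 22 (-1.34, adjusted p = 0.435). Of 25 genes of Blm partners, recombination repair and p53, 2 were tested, Rad51b (5 and 12) and Atr (5 and 5), and 0 called (23 and 40 insertions, median -0.35). Blm itself, whose m3 allele both groups carry, had 1 insertion in a tumour and 1 in a tail, a ratio of 1.16 (95% counting interval 0.0148 to 91). None of the 12 genes of B cell confinement and migration reached the minimum (12 insertions in tumours and 6 in tails, 6 and 1 of them in Dock8). For these lists, and for those of other cell types and hotspots below, the 0 calls are those of edgeR and lie near the 0.693% and 0.173% called over all genes, so they say nothing about the members; DESeq2 called only Ptprc and Notch1 among the 1154.

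The lists for other cell types that the tissues could hold are given by their counts. Of 14 T-lineage genes 2 were tested, Tox (14 insertions in tumours and 4 in tails, log2 fold change 1.69, adjusted p = 0.310) and Themis (13 and 3, 1.89, adjusted p = 0.22), and the list held 39 and 18. None of 12 myeloid genes was tested (4 and 4 insertions). On the side of the tail's own tissues, the epidermal list had 34 and 57 insertions with 3 of 32 genes tested (median -0.76, with Fat1 at 3 and 11), the dermal and mesenchymal list 84 and 116 with 6 of 28 tested (median 0.11), and the muscle, cartilage and bone list 42 and 65 with 3 of 12 tested (median -0.78, with Sox6 at 9 and 21). Very long neuronal genes, which present many TA sites in any tissue, had 801 and 1123 insertions, or 17.4 ± 3.20 and 21.8 ± 4.59 per 1000, with 24 of 25 tested, 0 called and a median of -0.15. Lsamp had 64 and 128 and Ptprd 59 and 65.

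The known hotspots of such screens were hit in every sample of both groups, except Foxf2. En2 had 33 insertions in 11 tumours and 26 in 11 tails (log2 fold change 0.60, adjusted p = 0.729), all within positions 28169851 to 28170235 of chromosome 5. Its TA sites gave 0.0622 and 0.0833 expected, so the counts were 530 and 312 times as high. Whether all of these lines are insertions at En2 was not tested. A TA at position 28170235 was hit in 20 of the 22 samples. En2 held 0.347% ± 0.214 of the reads of tumours and 0.802% ± 0.296 of those of tails (SD, n = 11 each, permutation p = 3.9e-04, adjusted p = 0.113). Sfi1 had 42 insertions in 11 tumours and 58 in 11 tails (-0.21, adjusted p = 0.934), and Foxf2 had 0 in either. The hotspot list thus had 2 of 3 genes tested and 0 called, with 75 and 84 insertions and a median of 0.20.

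Across all genes, insertions of tumours lay inside genes more often than those of tails. The share was 47.6% in the lowest tumour, 50% in the median and 51.7% in the highest, and 45.4%, 46.9% and 48.6% in tails, so the ranges overlapped by a little. The means of 50% ± 1.48 and 46.9% ± 0.946 (SD, n = 11 each) differed (permutation test, p = 4.0e-05), and among samples with joined names the difference was 3.10 percentage points (exact permutation test, p = 2.4e-04), beside 3.08 in all. Genes hit per 1000 insertions numbered 394 ± 47.9 in tumours and 360 ± 28.5 in tails, which did not pass (permutation test, p = 0.0547). With every sample thinned to 760 insertions, the genes hit by those 760 numbered 360 ± 16.9 and 341 ± 9.87, which did pass (permutation test, p = 0.0065). These thinned counts are per 760 insertions and not per 1000. Inside genes, 45.9% ± 1.58 of the insertions of tumours and 47.7% ± 0.741 of those of tails lay in the direction of transcription (permutation test, p = 0.0015). No single gene passed a test of orientation within tumours (exact sign-flip tests over 374 genes, 0 called after adjustment and 3 at an unadjusted p below 0.05). With at most 11 tumours hit, such a test over this many genes could hardly call any, and the 0 says nothing about orientation.

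Shares of the bases around the TA are given over the pooled insertions of each group. The site of every insertion is a TA in both groups. An A at the third base before the TA was found at 72.3% of tumour insertions and 76.4% of tail insertions, a T at the third base after it at 71.6% and 76.4%, and both at 47.8% and 55.5%. The insertions of Ptprc had both at 63.1% and those of Notch1 at 57.9%, whereas those of Fas had both at 32% and those of Birc3 at 23.5%. These were the highest and lowest of the called genes, and the others lay between 33.3% (Slamf6) and 57.1% (Rit2). These shares are over insertions, which are not independent of each other, and were not tested.

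The PB samples, whose transposon needs TTAA instead of TA, were compared in the same way. Of 3502 genes tested, 73 were higher in PB tumours than in PB tails (2.08%) and 79 were higher in PB tails (2.26%). Ptprc had 191 insertions in 28 of 30 PB tumours and 1 in the 12 tails (log2 fold change 4.76 ± 0.57, adjusted p = 2.2e-13). Ebf1 had 219 and 20 (1.54 ± 0.34, adjusted p = 0.00104), Fas 68 and 3 (2.39 ± 0.60, adjusted p = 0.00474) and Slamf6 55 and 1 (3 ± 0.70, adjusted p = 0.00189). Fas was hit in 27 of the 30 PB tumours and Slamf6 in 18. Notch1 had 7 insertions in 5 of 30 PB tumours and 51 in 12 of 12 tails (log2 fold change -3.98 ± 0.43, adjusted p = 1.5e-16).

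The remaining genes were not called in PB. Traf3 had 48 insertions in PB tumours and 7 in tails (log2 fold change 0.92, adjusted p = 0.326), Cbfb 18 and 2 (1.08, adjusted p = 0.411), Birc3 19 and 2 (1.13, adjusted p = 0.376), Skint5 10 and 6 (-0.74, adjusted p = 0.538) and Rit2 12 and 2 (0.62, adjusted p = 0.686). A direct test of the difference between SB and PB, as an interaction over all 64 samples, called 0 of 4521 genes (edgeR, 0%, 428 at an unadjusted p below 0.05). The smallest adjusted p, 0.241, belonged among others to Rit2 (interaction log2 -4.11) and Skint5 (3.37), and that of Ptprc was 0.717 and that of Notch1 0.628. A difference between the transposon systems was thus not detected for any of the 10 genes, which does not show that they behave alike.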

How the data were processed

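The authors deposited 1 table of 385883 lines, each an insertion of a sample with its position, strand and raw read count (at least 2), from 75 bp paired-end sequencing of both transposon ends. Positions are on mm10. The aligner, the insertion caller and the read filters are not given in the sources used here. A further per-sample column (1) of normalized coverage was not used here.

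SB lines (59423 in tumours, 88980 in tails) were moved to a TA within 5 bp, and lines of a sample at 1 position became 1 insertion. The sex chromosomes and chromosome 14, which held the most insertions per Mb and was taken as the donor, were left out. Genes were those of RefSeq for GRCm38, from start to end. edgeR's quasi-likelihood test used insertions per gene, with the sample's insertions as library size and at least 10 insertions per gene. Permutation tests used 100000 random reassignments of samples, and all reassignments among joined names. Fisher's, permutation and orientation tests were adjusted over all genes tested instead of the named genes, as first planned. Expected insertions follow TA sites per chromosome. Ratio intervals are exact and conditional on the sum.

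Named are up to 15 genes higher in tumours and up to 10 in tails, by p, with the next to make 10 and 8, Blm, 3 hotspots and members of 17 lists. Genes named outside this rule were chosen after their values were seen. Members and lists were chosen with earlier results of these data known. A withheld gene and a withheld target site are not reported here. The edgeR step was tested on simulated data. The simulated counts varied independently between samples, and each change held for all samples of a group. They thus cannot check calls that rest on 1 tumour. Python 3.11.15, numpy 2.4.6, pandas 2.3.3, scipy 1.17.1, matplotlib 3.10.9, R 4.3.3, edgeR 4.0.16 and DESeq2 1.42.0 were used.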

Additional observations from a re-analysis of the deposited data

Results flagged for a closer look

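Ints6, which encodes a subunit of the Integrator complex, lies on chromosome 14, outside the comparison, and drew attention because its tumours stood above the tails there. With the donor and sex chromosomes kept, it had 19 insertions in 9 of 11 SB tumours and 5 in 4 of 11 SB tails (edgeR log2 fold change 2.23 ± 0.62 SE, adjusted p = 0.0240). On the same chromosome Pcdh9 had 355 and 1299 insertions (-1.25 ± 0.19), and local hopping from the donor array cannot be told apart there from other differences between the groups.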

How the results depend on the processing

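No paired analysis was possible because the replicate numbers follow accession order and tumours and tails came from different mice. The number at the start of the sample title as a block gave 7 genes higher in tumours and 2 in tails, without Fas (adjusted p = 0.116) and Slamf6 (adjusted p = 0.18) and with Tent2.

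The 8 genes higher in tumours became 1 with DESeq2 (Ptprc), 1 with insertions of a sample within 10 kb counted once (Ptprc), 1 with the permutation test chosen after seeing the data (Ptprc), 0 with Fisher's exact test of samples hit (6 at an unadjusted p below 0.05) and 20 with the donor and sex chromosomes kept, all 8 among them. The 2 genes higher in tails became 1 (Notch1) with DESeq2, with no minimum, with at least 20 insertions, with samples hit and with the permutation test, 4 with at least 10 reads per insertion and 7 with all chromosomes. With 1 sample left out, 6 to 10 genes were higher in tumours and 2 to 5 in tails, the 5 without tumour 5 and 4 without tumour 6 or 11. Samples with joined names gave 8 and 2, without Fas and Slamf6 and with Ankrd44 and Tent2. The median log2 fold change of all genes was -0.19 with TMM (6 and 2 genes), -0.23 with DESeq2 and 0.21 with all chromosomes.

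The difference in genes hit per 1000 insertions, 34.2, was 51.0 with at least 10 reads (p = 0.00225), which passed. With every sample thinned to 760 insertions, the difference was 18.5 genes per 760 insertions (permutation test, p = 0.0065), which also passed. Its unit differs, so its size cannot be set beside the values per 1000. Signs turned for Slamf6 (-0.27) and Camta1 (-0.48) with DESeq2, Camta1 without tumour 10 (-0.13, in a range up to 1.995 without tail 6) and Sfi1 with all chromosomes (0.13), and the share of Ptprc insertions in the direction of transcription moved from 49.2% to 52.5% with at least 10 reads. Where insertions of a sample near each other counted once, or samples hit were counted, fewer insertions enter by construction; otherwise the cause was not tested. Of the other values, 658 kept direction and side of the threshold, 27 passed anew and 59 no longer passed.

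Genes with few TA sites seldom reached 10 insertions over both groups and were then not tested.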

Other observations

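Single insertions that held at least 1% of a sample's reads were found in all 11 SB tumours (64 insertions, 38 of them in genes) and in 5 SB tails (6 insertions, 4 in genes). Several lay in genes that the count of insertions did not call, and these genes were chosen after their values were seen. Malt1, which signals from the B cell receptor to NF-kB, held the most-read insertion of tumours 8 and 10, with 28383 reads (17.4% of the sample) and 7377 reads (7.29%). Both lay in intron 7, in the direction of transcription. The share of reads on Malt1 was 0.0246% in the median tumour and at most 0.0522% in a tail, and only tumours 8 and 10 had more than 1% (permutation p = 0.0183, adjusted p = 0.381 over all genes, n = 11 each).

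Nfkb2, the subunit of the non-canonical NF-kB pathway, held the most-read insertion of tumour 5, with 6382 reads (5.81%) in intron 16, in the direction of transcription. It had 3 insertions in 2 tumours and 0 in tails, too few to be tested. In tail 6 the most-read insertion, of 1120 reads (2.02%), lay in the very long gene Csmd1, which had 24 insertions in tumours and 56 in tails, 28 of the 56 in tail 6 alone and 28 in the other tails.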
